A study of Mus musculus with 16 samples.

Results

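The 34 genes described here make cholesterol, sense it, take it up, move it inside the cell or export it. They were chosen by name from that pathway, and each had a single row among the 10208 genes of the authors' deposited table. By role they are 18 synthesis enzymes, 4 regulators of the SREBP transcription factors, 2 lipoprotein receptors, 4 genes of LXR signalling and efflux, 5 of intracellular sterol transport and 1 esterifying enzyme. The list does not hold every gene of the pathway.

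Islet RNA was sequenced in 7 Cre+T samples and 9 Cre-T samples, as labelled, with islets isolated 6 days after tamoxifen. Both groups carry the same genotype label, Ins1-/-:Ins2f/f:Pdx1CreERT:mTmG, on a mixed, mostly C57Bl/6 background, so all of them lack Ins1 and carry a floxed Ins2 and the mTmG reporter. Tamoxifen activates CreERT, a recombinase here under Pdx1 control, to delete Ins2. Pdx1 is made in adult beta cells above all but not in them alone. Whether mice of the Cre-T group had the recombinase is not in the labels, nor is age, nor whether each sample was 1 mouse. P-values therefore set the group difference only against the spread of these samples, which may be technical in part. Only the authors' limma comparison was analysed here, without values per sample, so the depth of each sample is unknown and no sample can be shown on its own. Its fold changes were read as Cre+T over Cre-T from the signs of Ins2 (log2 fold change -0.47 ± 0.17, SE) and Esr1 (9.30 ± 0.39), whose domain is part of CreERT, in the authors' deposited table. Those 2 signs are therefore no test of the deletion. By group levels estimated from the same values, Esr1 was at 600 CPM in Cre+T and 0.953 CPM in Cre-T. An effect of the recombinase itself cannot be told apart from that of the Ins2 deletion here, and was not tested. Beta-cell markers were present as the tissue label implies: all 13 of a marker list had a row, and Ins2 had the highest mean of all genes, 16.34 log2 CPM, in the authors' deposited table.

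Cells make cholesterol from acetyl-CoA through mevalonate, farnesyl diphosphate, squalene and lanosterol. When sterol in the endoplasmic reticulum is low, SCAP carries SREBP2 to the Golgi, where proteases release a fragment that switches on the enzymes and lipoprotein receptors. When sterol is high, INSIG proteins hold SCAP back, and oxysterols activate the LXR receptors, which switch on the exporters ABCA1 and ABCG1. In mouse beta cells the cholesterol content of membranes affects insulin granules and secretion, and loss of ABCA1 there impairs insulin release.

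Of the synthesis enzymes 10 of 18 rose in Cre+T islets, while 1 of 2 lipoprotein receptors and 3 of 4 LXR and efflux genes fell. By limma's adjusted p under 0.05, the authors' deposited table gave 14 of the 34 genes as risen and 5 as fallen, against 17.6% of all genes that rose and 20.1% that fell, 37.6% in all. No synthesis enzyme fell and 8 missed the threshold, with a median log2 fold change of 0.47 beside -0.003 over all genes in the authors' deposited table. All 18 estimates were positive, except that Pmvk turned to -0.074 where the summed expression of both groups was set equal, a shift of 0.14 log2 units. The sums were of group levels estimated from the authors' mean and fold change, so the shift is no measure of total RNA. With that scaling 860 of all genes rose and 3934 fell, against 1794 and 2049 without it, and of the 34 genes 11 rose and 7 fell. With the median ribosomal protein gene at 0, 1258 of all genes rose and 2803 fell, and of the 34 genes 13 rose and 6 fell. The 2 receptors and the 4 LXR and efflux genes had negative estimates under every scaling tried. Their medians were -0.37 and -0.33 in the authors' deposited table. No test of a whole list was made, and genes under 1 regulator can vary together across samples, so these counts are descriptions of the rows. Fewer cells of a type and less RNA per cell cannot be told apart in bulk islets.

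**Figure D1:**
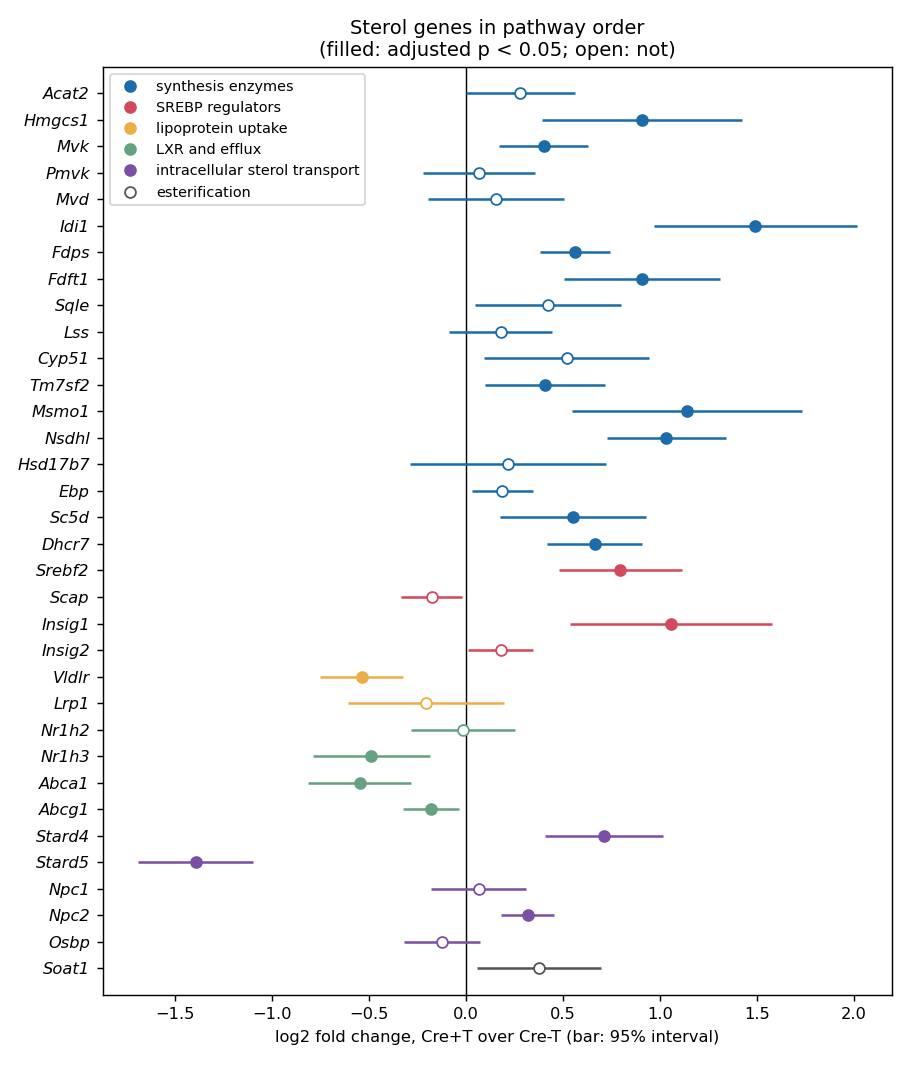
Log2 fold change of each of the 34 genes, Cre+T over Cre-T (horizontal axis), in pathway order from top to bottom, with 95% intervals from the authors' limma results; filled points have an adjusted p under 0.05. The enzymes at the top lie right of 0, from 0.07 for Pmvk to 1.49 for Idi1, while Vldlr, Nr1h3, Abca1, Abcg1 and Stard5 lie to the left.

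In the early mevalonate pathway, 4 of 7 enzymes rose by the authors' deposited table, and 3 missed the threshold. Idi1, the isomerase that makes dimethylallyl diphosphate, stood first by fold change among the 34. Its level was estimated at 96.3 CPM in Cre+T and 34.2 CPM in Cre-T from the authors' deposited table. That is a 2.81-fold rise (95% interval 1.96 to 4.04, adjusted p = 0.00068 by limma), rank 145 of 10208 by fold change in the authors' deposited table. Group levels are geometric means estimated from the authors' overall mean and fold change, on the assumption that all 16 samples entered their fit. Hmgcs1, which makes the HMG-CoA that enters the pathway, was at 143 CPM in Cre+T and 76.0 CPM in Cre-T by the same estimate from the authors' deposited table. Its rise of 1.88-fold carried a wide interval of 1.31 to 2.69 (adjusted p = 0.010 by limma) in the authors' deposited table. Fdps, farnesyl diphosphate synthase, rose less and with a smaller error, 1.48-fold with an interval of 1.30 to 1.67 (adjusted p = 0.00040 by limma) in the authors' deposited table. Mvk, mevalonate kinase, rose 1.32-fold from a low level (12.7 CPM in Cre+T and 9.60 CPM in Cre-T, adjusted p = 0.010 by limma) in the authors' deposited table. Where summed expression was set equal, Mvk no longer passed (adjusted p = 0.059).

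The other 3 genes of this stretch were Acat2, the cytosolic thiolase that joins acetyl-CoA units, Pmvk, the second kinase, and Mvd, the decarboxylase. Acat2 was at 0.28 ± 0.13 (adjusted p = 0.11 by limma), Mvd at 0.16 ± 0.17 and Pmvk at 0.07 ± 0.14, all as log2 fold changes from the authors' deposited table. From the authors' deposited table, the interval of Pmvk, 0.859 to 1.28 of the Cre-T level, takes in a change in either direction and ends below the estimate for Idi1. Mvk, Pmvk and Mvd act in turn between Hmgcs1 and Idi1, and their estimates were below those of both.

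Of the 3 steps that build squalene and close it into lanosterol, the first rose and the others had positive estimates outside the threshold by the authors' deposited table. Fdft1, squalene synthase, was estimated at 106 CPM in Cre+T and 56.4 CPM in Cre-T, a 1.87-fold rise (adjusted p = 0.0027 by limma) in the authors' deposited table. Sqle, squalene epoxidase, was at 362 CPM in Cre+T and 270 CPM in Cre-T, with a fold of 1.34, an interval of 1.03 to 1.74 and an adjusted p of 0.070 by limma in the authors' deposited table. Per kilobase of its longest transcript, Sqle had the highest mean level of the 34 genes, 6.10 log2 CPM per kb, while Lrp1 had the lowest, 1.17. Lss, lanosterol synthase, was at 0.18 ± 0.13 log2 units (adjusted p = 0.27 by limma) in the authors' deposited table.

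In the last stretch, from lanosterol to cholesterol, the authors' deposited table gave 5 of 8 enzymes as risen, and 3 missed the threshold. Msmo1, the oxidase that starts the removal of a pair of methyl groups from the sterol ring, was estimated at 195 CPM in Cre+T and 88.7 CPM in Cre-T from the authors' deposited table. Its fold of 2.20 had the largest standard error of the 34 genes, 0.28 log2 units (adjusted p = 0.0065 by limma) in the authors' deposited table. Nsdhl, the dehydrogenase that acts next at the same carbon, rose 2.05-fold with a narrower interval, 1.65 to 2.53 (adjusted p = 0.00026 by limma), in the authors' deposited table. Its levels were 30.0 CPM in Cre+T and 14.7 CPM in Cre-T by the estimate from the authors' deposited table. Hsd17b7, the ketoreductase that completes this demethylation, was at 0.22 ± 0.24 log2 units and missed the threshold (adjusted p = 0.49 by limma) in the authors' deposited table. These 3 enzymes act in turn at 1 carbon, and the estimate of the third had an interval of 0.820 to 1.65-fold in the authors' deposited table, which overlaps only the low end of the interval of Msmo1, 1.46 to 3.33.

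Dhcr7, the reductase of the final step, rose 1.58-fold (34.8 CPM in Cre+T and 21.9 CPM in Cre-T, adjusted p = 0.00097 by limma) in the authors' deposited table. Sc5d, the desaturase before it, rose 1.47-fold (adjusted p = 0.024 by limma) in the authors' deposited table. Tm7sf2, a reductase of sterol ring double bonds, rose 1.33-fold at a low level of 10.2 CPM in Cre+T and 7.66 CPM in Cre-T (adjusted p = 0.038 by limma) in the authors' deposited table. Neither Sc5d (adjusted p = 0.070) nor Tm7sf2 (0.15) passed with summed expression set equal, and Tm7sf2 also missed the threshold with ribosomal protein genes centred on 0 (0.072). Cyp51, the lanosterol demethylase, stood just outside the threshold with a fold of 1.43 (interval 1.07 to 1.92, adjusted p = 0.052 by limma) in the authors' deposited table. Ebp, the isomerase of the sterol ring, was at 1.14-fold with a narrow interval of 1.02 to 1.27 (adjusted p = 0.056 by limma) in the authors' deposited table.

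**Figure D2:**
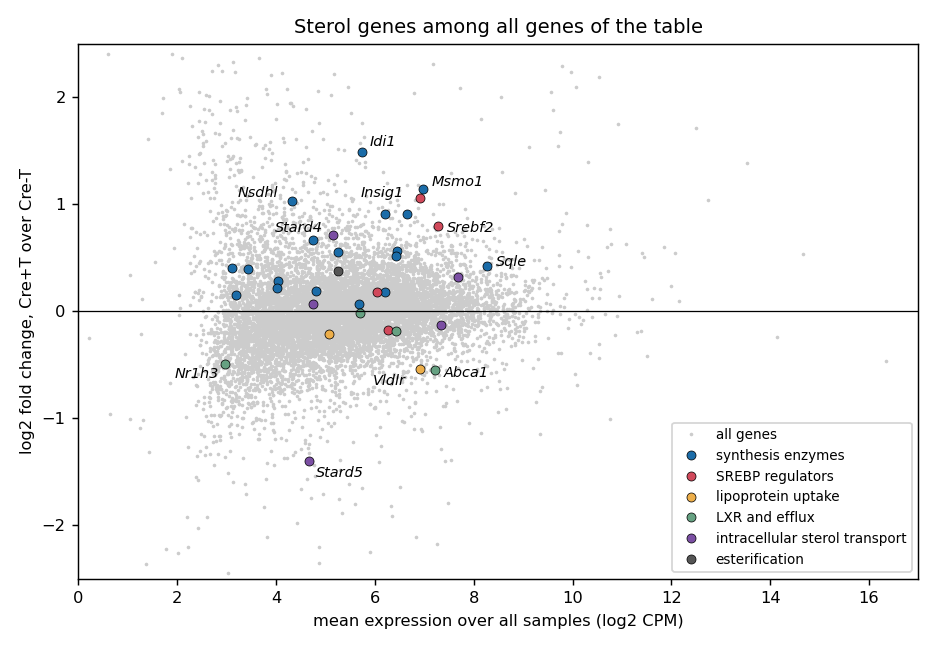
Log2 fold change, Cre+T over Cre-T, against the authors' mean expression in log2 CPM for all genes (grey) and the 34 sterol genes (coloured by role); genes beyond 2.5 log2 units are not drawn. The enzymes, Srebf2, Insig1 and Stard4 lie above 0 at middling expression, Idi1 highest at 1.49, and Stard5 lies lowest at -1.39.

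Most enzymes had larger standard errors than genes at a like level. Set against the 500 genes nearest in mean expression in the authors' deposited table, the enzymes' errors had a median percentile of 81.0, and 15 of 18 lay above the 50th. The other 16 genes had a median percentile of 72.3, with 11 above the 50th, in the authors' deposited table. Hmgcs1, Idi1, Msmo1, Cyp51 and Insig1 all stood above the 95th percentile. A limma error reflects the spread between samples of a group, which the table does not show sample by sample.

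Promoters were described by motif letters, and a link between those letters and fold change was not tested. RefSeq windows on GRCm38.p6, 250 bases before to 50 after each start, matched 28 of the 34 genes and 7798 genes of the authors' deposited table. Fdps, Fdft1, Sqle, Abcg1, Stard4 and Npc1 had no window and are not in the motif counts. Letters searched on both strands were TCACNCCAC for the sterol regulatory element that SREBP binds, CCAAT for NF-Y, a factor known to act beside SREBP, and GGGCGG for Sp1. No match of 1 motif overlapped that of another in the windows of these 28 genes. CCAAT stood in a window of 14 of 15 enzymes and in 8 of 13 other sterol genes with a window, against 42.4% of all matched genes. Genes can have several windows. Among genes with 1 window the shares were 12 of 13 enzymes, 6 of 9 other sterol genes and 38.4% of all. GGGCGG stood in 14 of 15 enzymes and in 71.7% of all matched genes. Acat2 was the enzyme without CCAAT.

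The sterol element was found in the window of 1 of the 28 matched sterol genes, Hmgcs1, and in 1.37% of all matched genes. In Hmgcs1 it begins at base -137, counted from the start of the transcript, and lies between 2 of the window's 4 CCAAT letters, which are all on the reverse strand. Idi1 holds 2, at -45 and -14 on the reverse strand, and Msmo1 holds 3 on the forward strand, at -160, -96 and -55. A match is a description of these letters and not a binding site. Sites that differ from the searched letters were not counted, so a window without a match may still hold a sterol element. The windows of these 3 enzymes, which had some of the largest rises, follow 5′ to 3′ on the gene's strand. Capitals mark CCAAT or its reverse complement and, in Hmgcs1, also the sterol element. They lie at chr13:119690101-119690400 (Hmgcs1, plus strand), chr13:8885356-8885655 (Idi1, plus) and chr8:64733529-64733828 (Msmo1, minus).
Hmgcs1: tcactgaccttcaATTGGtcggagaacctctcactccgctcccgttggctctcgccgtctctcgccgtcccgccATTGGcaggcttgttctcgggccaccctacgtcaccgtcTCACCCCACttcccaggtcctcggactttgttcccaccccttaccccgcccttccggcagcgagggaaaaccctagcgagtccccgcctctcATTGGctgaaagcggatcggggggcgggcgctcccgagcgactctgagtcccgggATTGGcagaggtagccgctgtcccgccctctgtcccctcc
Idi1: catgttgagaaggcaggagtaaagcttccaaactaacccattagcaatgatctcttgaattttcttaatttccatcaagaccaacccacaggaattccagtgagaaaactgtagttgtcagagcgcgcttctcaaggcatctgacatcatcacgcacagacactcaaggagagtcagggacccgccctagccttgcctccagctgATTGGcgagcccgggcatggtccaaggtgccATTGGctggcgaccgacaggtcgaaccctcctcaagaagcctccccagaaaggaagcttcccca
Msmo1: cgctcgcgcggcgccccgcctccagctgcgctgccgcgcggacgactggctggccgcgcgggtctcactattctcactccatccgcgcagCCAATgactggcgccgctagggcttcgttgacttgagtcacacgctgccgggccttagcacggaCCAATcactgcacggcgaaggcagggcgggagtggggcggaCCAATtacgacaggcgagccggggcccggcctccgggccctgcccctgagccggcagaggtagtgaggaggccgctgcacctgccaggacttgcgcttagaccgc

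Among the regulators, the factor and 1 of its 2 anchors rose. Srebf2, which encodes SREBP2, was estimated at 210 CPM in Cre+T and 121 CPM in Cre-T, a 1.74-fold rise (interval 1.39 to 2.16, adjusted p = 0.0016 by limma) in the authors' deposited table. Insig1, itself a known target of SREBP2, rose 2.08-fold, with 182.2 CPM in Cre+T and 87.6 CPM in Cre-T (adjusted p = 0.0050 by limma), in the authors' deposited table. Insig2, the paralogue that SREBP2 is not known to induce, was at 1.13-fold (interval 1.01 to 1.27, adjusted p = 0.084 by limma) in the authors' deposited table. The 2 intervals do not overlap, but the difference between the paralogues was not tested, since the table holds no covariance between genes. Scap, the escort, was at -0.18 ± 0.07 log2 units (adjusted p = 0.069 by limma) in the authors' deposited table. It passed as lower where the summed expression (adjusted p = 0.0027) or the ribosomal protein median (0.017) was set equal in both groups. The Insig1 window, at chr5:28071162-28071461 on the plus strand, is shown for comparison with the enzymes. It holds CCAAT letters once, in capitals, at -216, farther from the start than those of Idi1 or Msmo1 and nearer than the outermost of Hmgcs1, at -237.
Insig1: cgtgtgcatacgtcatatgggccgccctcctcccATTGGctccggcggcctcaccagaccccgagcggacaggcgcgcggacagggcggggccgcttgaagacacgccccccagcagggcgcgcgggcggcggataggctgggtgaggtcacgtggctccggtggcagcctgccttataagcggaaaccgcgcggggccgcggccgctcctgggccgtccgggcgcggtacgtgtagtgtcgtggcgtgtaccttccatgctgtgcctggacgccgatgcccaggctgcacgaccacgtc

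**Figure D3:**
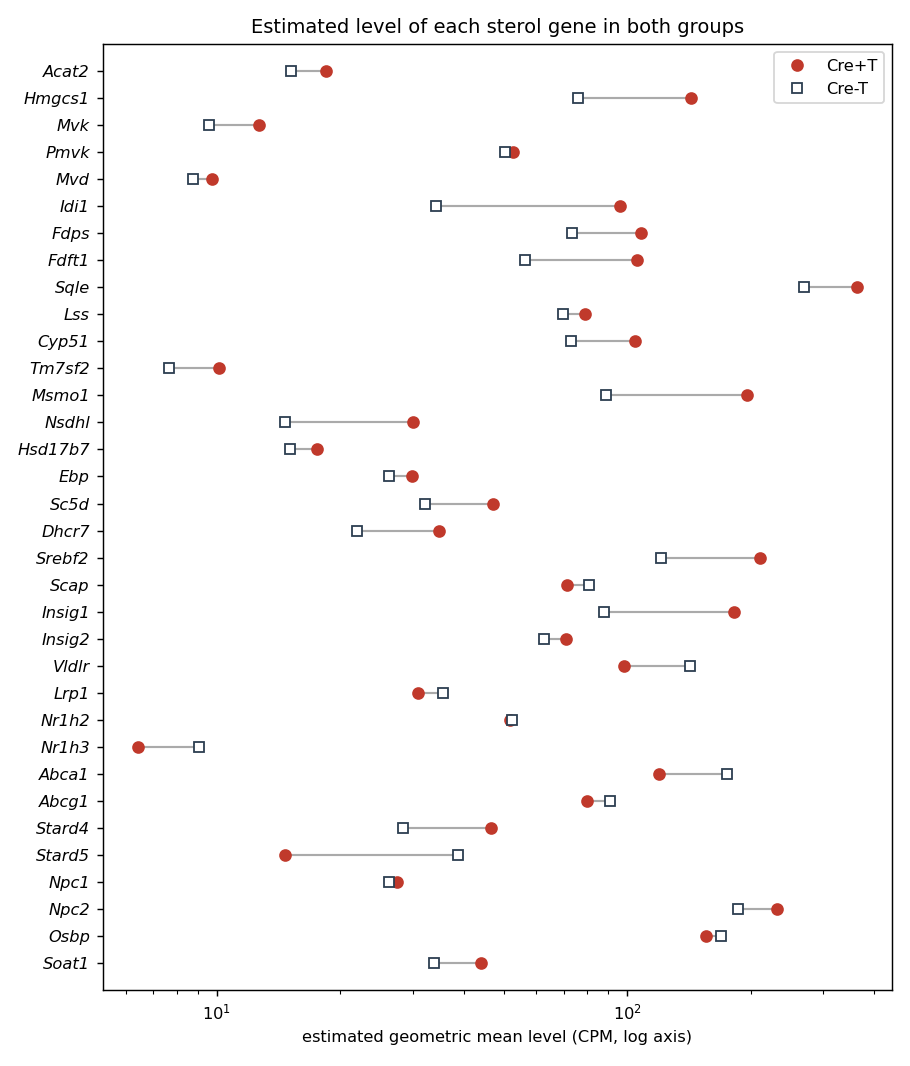
Estimated geometric mean level in CPM (log axis) of each of the 34 genes in Cre+T (filled circles) and Cre-T (open squares) islets, in pathway order, derived from the authors' mean and fold change with no error shown. Idi1 is drawn at 96.3 CPM in Cre+T and 34.2 CPM in Cre-T, and Stard5 at 14.7 CPM in Cre+T and 38.7 CPM in Cre-T.

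Both lipoprotein receptors had lower estimates in Cre+T. Vldlr, a receptor for triglyceride-rich lipoproteins, fell to 98.1 CPM in Cre+T, against 142 CPM in Cre-T, or 0.688 of that level (interval 0.594 to 0.797, adjusted p = 0.0014 by limma) in the authors' deposited table. Lrp1, a large scavenging receptor of the same family, was at 0.866 of the Cre-T level, with an interval of 0.655 to 1.15 (adjusted p = 0.40 by limma), in the authors' deposited table.

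Of the LXR and efflux genes, 3 of 4 fell in the authors' deposited table. Abca1, which loads cholesterol onto lipid-poor apolipoprotein, was estimated at 119 CPM in Cre+T and 175 CPM in Cre-T, a fold of 0.684 (interval 0.569 to 0.821, adjusted p = 0.0044 by limma), in the authors' deposited table. Nr1h3, which encodes LXR-alpha, fell to 6.44 CPM in Cre+T, against 9.04 CPM in Cre-T (fold 0.713, adjusted p = 0.015 by limma), in the authors' deposited table, and had the lowest mean of the 34 genes. Nr1h2, which encodes LXR-beta, was at 0.990 of the Cre-T level with an interval of 0.823 to 1.19 (adjusted p = 0.94 by limma) in the authors' deposited table. Abcg1, the transporter also known from insulin granules, was only just inside the threshold at -0.18 ± 0.07 log2 units (adjusted p = 0.049 by limma) in the authors' deposited table. A shift of all fold changes by 0.003 log2 units, to a median of 0, took its adjusted p to 0.052.

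Of 5 intracellular transport genes, 2 rose, 1 fell and 2 missed the threshold. Stard5, a soluble sterol carrier whose transcript is known to rise under endoplasmic reticulum stress in mouse cells, had the lowest fold change and the smallest p of the 34 genes. It fell to 14.7 CPM in Cre+T, against 38.7 CPM in Cre-T, by the estimate from the authors' deposited table. That is 0.380 of the Cre-T level (interval 0.310 to 0.467, adjusted p = 3.2e-05 by limma), and by p the gene ranked 8 of 10208 in the authors' deposited table. Its paralogue Stard4, a sterol carrier known as a target of SREBP2, rose 1.64-fold to 46.7 CPM in Cre+T, against 28.5 CPM in Cre-T (adjusted p = 0.0023 by limma), in the authors' deposited table. Npc2, which hands cholesterol from lysosomal content to NPC1, rose 1.25-fold with the smallest error of the 34 genes (0.06 log2 units, adjusted p = 0.0025 by limma) in the authors' deposited table. Npc1, its membrane partner, was at 0.07 ± 0.12 log2 units (adjusted p = 0.67 by limma) in the authors' deposited table, and at -0.077 with summed expression set equal. Osbp, which trades cholesterol for a phosphoinositide at Golgi contacts, was at -0.12 ± 0.09 (adjusted p = 0.30 by limma) in the authors' deposited table, and passed as lower with summed expression set equal (-0.27, adjusted p = 0.027). Soat1, which esterifies cholesterol for storage, was at 1.30-fold (interval 1.04 to 1.62, adjusted p = 0.059 by limma) in the authors' deposited table.

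The windows of the 2 genes that fell most in fold among those with a window, Stard5 (chr7:83631767-83632066, plus strand) and Abca1 (chr4:53159846-53160145, minus strand), are printed to set beside those of the enzymes. Stard5 holds CCAAT letters 2 times, in capitals, and Abca1 holds none. Nor do Nr1h3 and Nr1h2, the other LXR and efflux genes with a window. The letters thus stood near the start of a gene that fell, Stard5, as well as of genes that rose, and 1 of 2 windows of Vldlr holds them too. Of genes outside the threshold, Pmvk, Mvd, Lss, Cyp51, Hsd17b7, Ebp, Insig2, Osbp and Soat1 also hold them. Acat2, Scap, Lrp1 and Nr1h2, outside it as well, do not. The LXR motif, a direct repeat of AGGTCA with a spacer of 4 bases, was in no window of any matched gene. Only these exact letters were searched, and none of 7798 matched genes held them, so the search could not tell genes apart. It does not show that the LXR and efflux genes lack an LXR site.
Stard5: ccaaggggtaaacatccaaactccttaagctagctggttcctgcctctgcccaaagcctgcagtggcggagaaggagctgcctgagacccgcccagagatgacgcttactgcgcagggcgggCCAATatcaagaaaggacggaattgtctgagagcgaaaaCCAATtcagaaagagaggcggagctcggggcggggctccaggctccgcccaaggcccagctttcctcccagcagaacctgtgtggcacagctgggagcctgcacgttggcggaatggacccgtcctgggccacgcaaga
Abca1: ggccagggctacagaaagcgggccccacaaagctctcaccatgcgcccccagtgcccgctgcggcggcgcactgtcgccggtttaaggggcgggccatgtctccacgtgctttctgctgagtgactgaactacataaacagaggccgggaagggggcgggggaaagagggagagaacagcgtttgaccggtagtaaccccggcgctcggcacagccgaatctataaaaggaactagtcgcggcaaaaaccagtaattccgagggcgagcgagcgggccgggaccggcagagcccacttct

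Genes that supply, branch off or regulate the pathway were listed beside the 34. Of 59 such genes, 52 had a row, and the authors' deposited table gave 4 as risen, 15 as fallen and 33 outside the threshold, with a median log2 fold change of -0.05. These are shares of 7.69% risen and 28.8% fallen, against 17.6% and 20.1% of all genes, and the smaller lists that follow are described by their counts alone. Among 11 measured genes of the isoprenoid branches, none rose and 5 fell in the authors' deposited table. They included Dhdds, a dolichol synthase subunit, at -0.43 ± 0.09 (adjusted p = 0.0025 by limma) and Pdss2, which makes the tail of ubiquinone, at -0.56 ± 0.12 (0.0027), in the authors' deposited table. In the supply of acetyl-CoA and acetoacetyl-CoA, with 4 genes, the mitochondrial thiolase gene Acat1 fell (-0.42 ± 0.11, adjusted p = 0.0076 by limma) in the authors' deposited table. ATP-citrate lyase, Acly, was at -0.42 ± 0.17 (adjusted p = 0.065 by limma) in the authors' deposited table.

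Among 9 genes of SREBP cleavage and sterol-regulated degradation, 1 rose and 3 fell in the authors' deposited table. The lowered genes were Erlin1 (-0.45 ± 0.08, adjusted p = 0.0011 by limma) and Erlin2 (-0.37 ± 0.09, 0.0059), scaffolds of the endoplasmic reticulum that bind cholesterol, and the protease gene Mbtps2 (-0.31 ± 0.08, 0.0066), in the authors' deposited table. Of 18 sterol transfer genes, 2 rose and 5 fell in the authors' deposited table. Tmem97, a sterol-responsive membrane protein that binds NPC1, fell in the authors' deposited table (-0.99 ± 0.17, adjusted p = 0.00076 by limma). Its direction was opposite to that of Insig1 and Stard4, and targets of SREBP2 were not compared as a set. Gramd1c, an Aster protein, fell too, at -0.70 ± 0.12 (adjusted p = 0.0010 by limma) in the authors' deposited table. Of 6 other lipoprotein receptor genes, 1 rose and none fell by the adjusted p: Lrp6, better known from Wnt signalling, at 0.27 ± 0.09 (adjusted p = 0.022 by limma), in the authors' deposited table. Mylip, a ligase that degrades lipoprotein receptors, was at -0.22 ± 0.15 (adjusted p = 0.25 by limma) in the authors' deposited table. Of 3 measured LXR partners and exporters, Rxra fell (-0.26 ± 0.09, adjusted p = 0.037 by limma) and Rxrb missed the threshold (-0.16 ± 0.07, 0.067) by the authors' deposited table. Nceh1, a cholesteryl ester hydrolase, was at 0.20 ± 0.09 (adjusted p = 0.095 by limma) in the authors' deposited table.

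**Figure D4:**
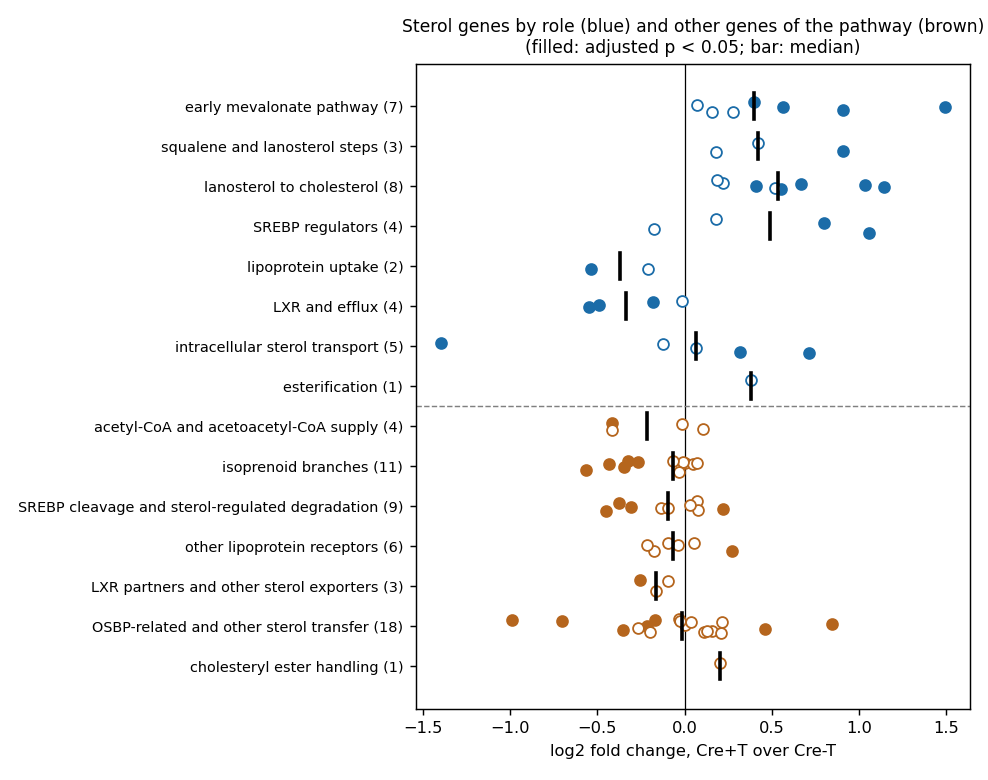
Log2 fold change, Cre+T over Cre-T, of the 34 sterol genes by role (blue) and of 52 other genes of the pathway (brown), 1 point per gene with the number of genes in parentheses; filled points have an adjusted p under 0.05 and black bars are medians. Medians of the 3 enzyme stretches lie between 0.40 and 0.54, those of uptake and of LXR and efflux at -0.37 and -0.33, and those of the 7 other pathway lists between -0.21 and 0.20.

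Markers of other cells moved in the same comparison. All 20 measured acinar markers, of 24 listed, rose, by 1.72 to 3.79 log2 units (median 2.55), in the authors' deposited table, and their summed level was estimated at 45970 CPM in Cre+T and 9962 CPM in Cre-T. Among the most abundant, Ctrb1 rose by 1.72 ± 0.51 and Amy2a5 by 2.77 ± 0.74 in the authors' deposited table. Of 11 measured macrophage and leukocyte markers, of 21 listed, 6 rose and none fell (median 0.77), led in level by Cd74 at 1.35 ± 0.25, with Lyz2 at 0.61 ± 0.25 outside the threshold, in the authors' deposited table. Their summed level was estimated at 357 CPM in Cre+T and 172 CPM in Cre-T. Of 4 measured red blood cell genes, 3 rose (median 3.37), Hbb-bs by 3.22 ± 0.87 and Hba-a1 by 3.32 ± 1.02, in the authors' deposited table, and near-identical globin copies can share reads. Endothelial genes (1 rose and 1 fell of 10, Kdr 0.02 ± 0.21, Flt1 0.16 ± 0.20), stromal genes (2 and 1 of 7, Col3a1 0.15 ± 0.42, Rgs5 1.51 ± 0.36) and ductal genes (1 and 1 of 7, Krt8 1.13 ± 0.32, Spp1 -1.15 ± 0.58) had less uniform values in the authors' deposited table. Of 13 beta-cell markers, 6 rose and 1, Ins2, fell, with Iapp at 0.54 ± 0.10, and of 10 alpha, delta and PP cell markers 1 rose and 2 fell, with Gcg at -0.24 ± 0.29 and Ppy at -0.18 ± 0.41, in the authors' deposited table. The part of cell makeup in the values of the sterol genes was not tested.

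Some rows could take reads from an overlapping gene, since the counting rules are not in the sources used here. The labelled TruSeq kit does not mark strand, so this holds for overlaps on either strand. In GENCODE release M21, 18.3% of the exonic bases of Fdft1 overlap Ctsb on the other strand, whose own estimate was -0.25 ± 0.15 in the authors' deposited table. For Stard5, 22.0% overlap Il16, on the other strand and without a row in the authors' deposited table. For Fdps, 26.7% overlap the gene model Gm43738, on the same strand and also without a row. For Tm7sf2, which was near the threshold, 12.1% overlap Vps51 on the same strand, whose estimate was -0.12 ± 0.06 in the authors' deposited table.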

How the data were processed

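Islet RNA of 7 Cre+T and 9 Cre-T samples was sequenced as paired reads with a TruSeq kit, per the labels' protocols. Per the submitters' processing notes, TopHat2, limma and the build GRCm38 were used, and the table's name adds voom. Versions, the counting tool and the filter on low genes: not given in the sources used here. For 10208 genes the authors deposited, per the file headers, a log2 fold change and mean (read as log2 CPM), moderated t and log-odds scores, p-values, adjusted p-values and q-values, and no values per sample. Therefore the authors' limma p-values stand in for a fit of counts.

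Adjusted p-values were checked to be Benjamini-Hochberg values over all rows, and the deposited q-value was 0.325 times the adjusted p in every row. Standard errors are the log2 fold change divided by t, with 95% intervals at 16.1 degrees of freedom, the number that links t and p in the rows checked. Changes were called at an adjusted p under 0.05. Group levels used weights of 7 and 9 samples. The titles begin with 6 unexplained prefixes, 2 of which hold both groups, so a batch they might mark was not tested. A name on several rows would take the row with the highest mean, which no gene of the list needed.

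The members, lists, motifs and tests were chosen with earlier results of these data known. All 34 members were named, with the 2 smallest p of each other pathway list and the 2 most abundant genes of each marker list. Other thresholds, filters and scalings were tried, and shifted fold changes were tested with the same errors after a test of that step on simulated data. Summed expression was that of the estimated group levels, and 76 ribosomal protein genes gave the other scaling. Some genes of the pathway are not reported here. Python 3.11.15 with pandas 2.3.3 and scipy 1.17.1 was used.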

Additional observations from a re-analysis of the deposited data

How the results depend on the processing

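No paired analysis was possible because the table holds no values per sample, and for the same reason no replicate could be left out. Counts below are for genes that rose and fell in the order all genes, the 34 genes, synthesis enzymes (rose) and other pathway genes. At an adjusted p under 0.01 they were 756 and 1079, 10 and 3, 6, and 3 and 10, and 1 LXR or efflux gene fell. With Holm adjustment they were 32 and 106, 1 and 1, 1, and 0 and 0. The 2 sterol genes left were Nsdhl and Stard5, and 0 regulators, receptors or efflux genes and 0 raised transport genes were left. With a minimum change of 0.5 log2 units they were 803 and 724, 11 and 3, 8, and 1 and 3, with 1 LXR or efflux gene lower and 1 transport gene higher. Among genes whose mean is at or above the table's median, which keeps 21 of the 34, they were 1096 and 803, 9 and 3, 6, and 3 and 10, with 1 transport gene higher and 0 lower. With summed expression set equal they were 860 and 3934, 11 and 7, 7, and 2 and 23, which took 1 regulator (Scap) and 2 transport genes (Stard5 and Osbp) among the lower genes. Pmvk (log2 fold change -0.074) and Npc1 (-0.077) then changed sign, both without a call in either setting. With the ribosomal protein median at 0 they were 1258 and 2803, 13 and 6, 9, and 3 and 19, with 1 regulator (Scap) lower. At an adjusted p under 0.1 they were 2308 and 2524, 19 and 6, 13, and 6 and 18, again with 1 regulator lower. At the authors' q-value under 0.05, an alternative added after the data were seen, 2700 and 2851 of all genes, 20 and 6 of the 34 and 14 enzymes passed, with 7 and 19 other pathway genes and 1 regulator lower. Apart from Abcg1, lost with the median of all genes at 0, no call among the 34 changed with 1 row per gene name, a mean of at least 1 log2 CPM or that centring. The depth per sample is unknown, so no limit from counting could be given.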
